A study of Bos taurus with 14 samples.

Results

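The 29 genes described here encode the enzymes that build cholesterol, the proteins that sense sterols and the proteins that move cholesterol within and out of the cell. They were taken by gene symbol from a table of 18078 genes, in which each of the 29 stood on 1 row. RNA was sequenced from a back muscle, the longissimus dorsi, taken at slaughter on postnatal day 485 from 14 female cattle. In 7 animals (control) the dam had received 100% of its nutrient requirement from gestation day 158 until calving, and in the other 7 (restricted) less over the same period. The share of the requirement that these dams received is given as 70% in the series' design text and as 50% in the treatment protocol. No percentage is therefore attached to the group here. All calves were managed alike after birth and had free access to feed from day 301. Each library came from 1 animal. Whether any of them had a parent in common is not stated, so p-values measure the spread between these animals. Genotype and breed are not stated in the labels used here.

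Cholesterol is made from acetyl-CoA. Acetyl-CoA is first turned into mevalonate and then into isoprenoid units, which also feed the synthesis of ubiquinone, dolichol and the lipid anchors of proteins. Squalene is then formed, closed into a ring system and trimmed to cholesterol in the endoplasmic reticulum. When sterols are scarce, the carrier protein SCAP takes the transcription factor SREBP2, the product of SREBF2, to the Golgi, where it is cut and released to switch on genes of synthesis and uptake. When sterols are plentiful, INSIG proteins hold SCAP back, and the liver X receptors switch on exporters such as ABCA1. Skeletal muscle needs cholesterol for its surface membrane and for the transverse tubules, and part of what it uses comes from lipoproteins of the blood.

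The libraries held between 13631018 and 17325779 counts. Fibre transcripts dominated: the 11 muscle fibre markers examined, among them ACTA1 and CKM, had reads in all animals and summed to between 167018 and 227417 CPM, the counts scaled to library size with a correction for composition. The markers of other cell types also had reads. Summed adipocyte markers (10 genes, among them ADIPOQ and FABP4) ran from 26.5 to 235.3 CPM in controls and from 55.5 to 351.9 CPM in restricted offspring. Summed macrophage markers (11 genes, of which MARCO was near 0) ran from 14.2 to 30.4 CPM and from 15.8 to 39.1 CPM, respectively. The median log2 fold change, restricted over control, was 0.10 for the fibre markers and -0.11 for adipocyte, -0.0054 for macrophage, -0.071 for fibroblast, -0.12 for endothelial and -0.19 for smooth muscle and pericyte markers. Fewer cells of a type and less RNA per cell cannot be told apart in such bulk tissue. By edgeR's quasi-likelihood test, 0 of the 12187 genes tested (0%) passed a Benjamini-Hochberg adjusted p of 0.05 between the diets, as with limma's voom, while DESeq2 passed 1. Before adjustment, edgeR placed 4.25% of genes under a p of 0.05, 2.17% with higher and 2.08% with lower values in restricted offspring.

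All 29 sterol genes were detected in all 14 animals and all passed the filter on low counts, so none was left out of the test. To compare genes with one another, CPM was divided by gene length in kilobases. On that scale FDFT1, squalene synthase, which commits the pathway to sterols, stood highest at 45.9 ± 9.30 CPM per kilobase (SD, n = 14), with a range of 25.1 to 62.8. The next gene, NR1H2, which encodes the liver X receptor beta, ran from 16.3 to 21.0, below the lowest FDFT1 value. The isomerase IDI1 followed at 15.8 ± 2.32, the mevalonate diphosphate decarboxylase MVD at 13.7 ± 1.27 and the sterol isomerase EBP at 12.7 ± 1.95, and the ranges of these 3 overlapped. At the other end stood SQLE, squalene epoxidase, at 0.866 ± 0.353 CPM per kilobase, and NSDHL, a sterol dehydrogenase, at 1.02 ± 0.248. FDFT1 makes squalene and SQLE consumes it, so the highest and the lowest of the 29 genes per length were neighbours in the pathway. SQLE rested on 16 to 81 reads per animal and ACAT2 on 14 to 51, whereas FDFT1 had 774 to 2017.

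**Figure D1:**
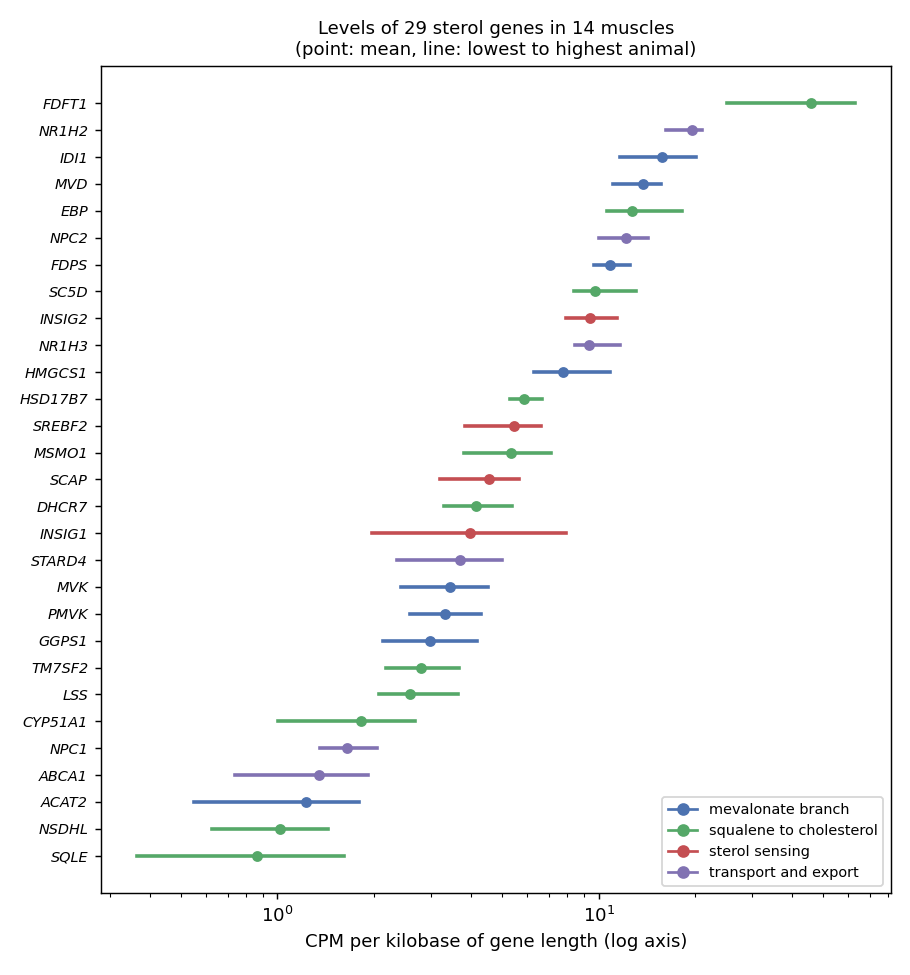
Level of each of the 29 sterol genes as CPM per kilobase of gene length on a log axis. Points are means of 14 animals and lines run from the lowest to the highest animal, with colours for the role of the gene. FDFT1 lies apart at the top (25.1 to 62.8), and SQLE is lowest on average.

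The first comparison asked whether transcripts of the synthesis enzymes differed between offspring of restricted and control dams. None of the 19 enzymes passed the adjusted threshold. The point estimates lay above 1 in 16 of the 19, beside 49.7% of all genes tested, with a median log2 fold change of 0.13 beside -0.00079 over all genes. HMGCS1, CYP51A1 and SC5D had an unadjusted p under 0.05, all 3 with higher values in restricted offspring. Enzymes of a pathway can be regulated together, so the 19 are not taken as independent of each other, and no test of the list is given.

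In the mevalonate branch, 6 of 8 ratios lay above 1, from 0.938 to 1.17. HMGCS1 (ENSBTAG00000011839), which makes HMG-CoA, the precursor of mevalonate, was the most abundant gene of this branch in CPM. It ran from 32.4 to 40.8 CPM in controls (median 37.8) and from 35.4 to 55.7 CPM in restricted offspring (median 38.9). The groups overlapped, and 3 restricted animals, 3, 5 and 7, lay above the highest control. Its means of 36.9 ± 2.85 and 43.0 ± 7.46 CPM (SD, n = 7 each) gave a 1.17-fold ratio, with 95% bounds of 1.01 and 1.34 (edgeR unadjusted p = 0.0351, adjusted p = 1.0).

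ACAT2, the thiolase that joins acetyl-CoA units, varied most in this branch. It ran from 1.37 to 2.64 CPM in controls (median 1.98) and from 0.967 to 3.16 CPM in restricted offspring (median 2.26), a ratio of 1.12 (0.811 to 1.55). Restricted 4 was the lowest of the 14 animals and restricted 2 the highest. For IDI1, which interconverts the isoprenoid units, all 7 restricted animals lay above the control median of 19.1 CPM, from 19.4 to 26.7, yet none exceeded the highest control at 27.1, and the ratio was 1.10 (0.940 to 1.28). MVD, which makes the first isoprenoid unit, lay on the opposite side, with all 7 restricted animals (21.2 to 25.8 CPM) under the control median of 25.9 and a ratio of 0.938 (0.837 to 1.05). The kinases MVK and PMVK had ratios of 0.974 and 1.04, FDPS, which makes farnesyl diphosphate, 1.08, and GGPS1, which makes geranylgeranyl diphosphate, 1.10. The intervals of these 4 all included 1.

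From squalene to cholesterol, 10 of 11 ratios lay above 1, and FDFT1 was the exception. FDFT1 (ENSBTAG00000012432) ran from 84.0 to 120.1 CPM in controls (median 101.4) and from 52.6 to 131.8 CPM in restricted offspring (median 90.6). The restricted group held both the lowest animal, restricted 6, and the highest, restricted 4. The ratio was 0.901 with an interval of 0.726 to 1.12, and its log2 fold change of -0.15 went to -0.053 without restricted 6 and to -0.26 without restricted 4.

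CYP51A1 (ENSBTAG00000001992), the lanosterol demethylase, ran from 2.78 to 5.31 CPM in controls (median 4.70) and from 4.28 to 7.41 CPM in restricted offspring (median 5.85). Restricted 1, 2, 6 and 7 lay above every control, while the other 3 lay among them. Means were 4.38 ± 0.884 and 5.68 ± 1.22 CPM (SD, n = 7 each), or 1.30-fold, with bounds of 1.03 and 1.64 (edgeR unadjusted p = 0.0322, adjusted p = 1.0).

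SC5D (ENSBTAG00000019246), the sterol desaturase, ran from 22.4 to 27.1 CPM in controls (median 23.6) and from 23.97 to 34.9 CPM in restricted offspring (median 27.1). All 7 restricted animals lay above the control median and 4 above the highest control. Means were 24.1 ± 1.53 and 27.8 ± 3.97 CPM, or 1.15-fold, with bounds of 1.02 and 1.31 (edgeR unadjusted p = 0.0275, adjusted p = 1.0).

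SQLE (ENSBTAG00000005498) had the widest spread of the 29 genes, with a 4.43-fold range over the 14 animals. It ran from 1.15 to 3.27 CPM in controls (median 2.22) and from 1.11 to 4.90 CPM in restricted offspring (median 2.72). Restricted 1 and 7 stood above all others, restricted 4 was lowest, and control 3 was close to it. The ratio of 1.36 was the largest of the 29 but its interval ran from 0.912 to 2.02 (edgeR unadjusted p = 0.124), and the log2 fold change went from 0.44 to 0.28 without restricted 1. The lanosterol synthase LSS had a ratio of 1.16 (0.977 to 1.39), a log2 fold change of 0.22 that went to 0.14 without restricted 7. The ratio was 1.13 (0.965 to 1.31) for DHCR7, which reduces a late sterol intermediate, and 1.12 (0.915 to 1.36) for the methyl sterol oxidase MSMO1. The reductase TM7SF2, NSDHL and EBP lay between 1.04 and 1.07, and HSD17B7, another sterol reductase, at 1.0 (0.896 to 1.12).

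**Figure D2:**
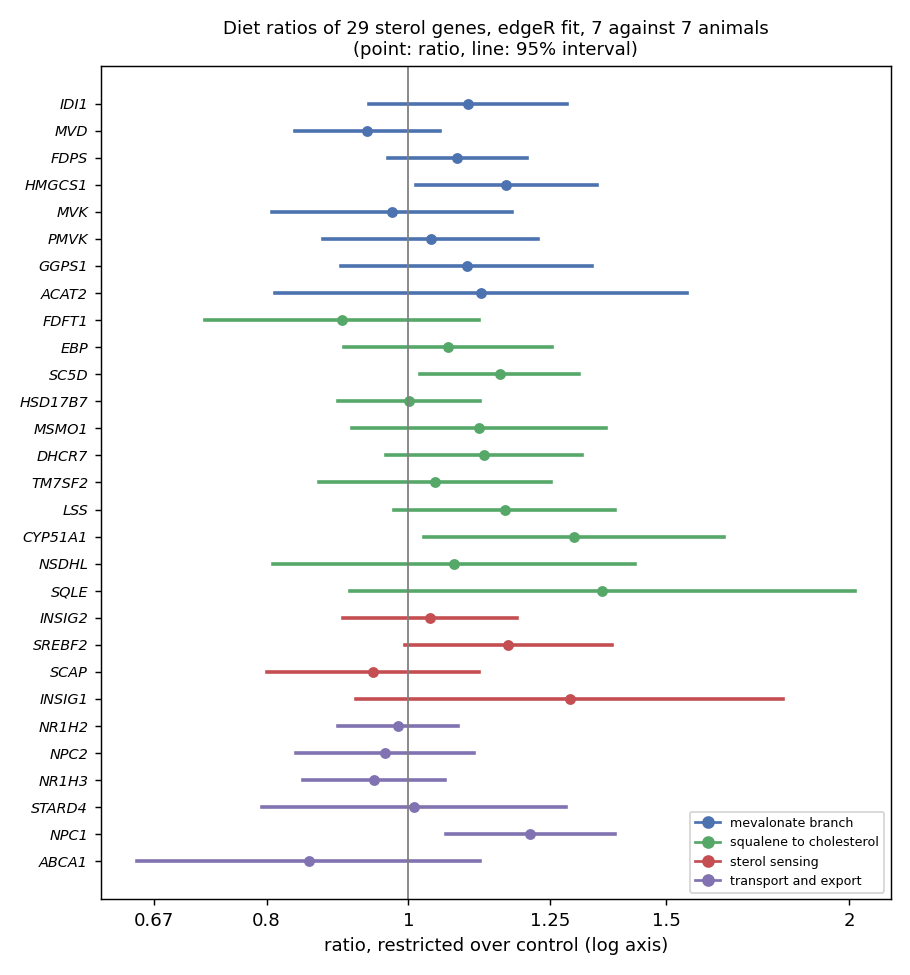
Ratio of restricted over control for each sterol gene from the edgeR fit, with its 95% interval, on a log axis (7 against 7 animals). HMGCS1, SC5D, CYP51A1 and NPC1 have intervals that exclude 1 before adjustment, and the interval of SQLE is the only one that reaches past 2.

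The second comparison asked the same of the genes that sense sterols. None of the 4 had an unadjusted p under 0.05. SREBF2 (ENSBTAG00000014265) came closest. It ran from 22.2 to 30.3 CPM in controls (median 25.9) and from 19.96 to 34.3 CPM in restricted offspring (median 33.3). Restricted 4 was the lowest of the 14 animals, 5 of the other 6 restricted animals lay above every control, and restricted 7 lay at 29.03 CPM. Means were 26.1 ± 3.23 and 30.6 ± 5.04 CPM, or 1.17-fold, with bounds of 0.994 and 1.38 (edgeR unadjusted p = 0.0578, adjusted p = 1.0). The log2 fold change of 0.23 went to 0.19 without control 5. Without restricted 4 it went to 0.31 (edgeR adjusted p = 0.801), and over the 23 alternatives of SREBF2 the adjusted p ran from 0.801 to 1.0.

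INSIG1 (ENSBTAG00000001592), which retains SCAP and is itself a target of SREBP, ran from 6.79 to 16.1 CPM in controls (median 12.5) and from 9.25 to 27.3 CPM in restricted offspring (median 13.5). Restricted 7 and restricted 2 stood above the rest, at 27.3 and 20.9 CPM, and the other 5 restricted animals lay within the range of the controls. The ratio of 1.29 had an interval of 0.921 to 1.80, and its log2 fold change went from 0.37 to 0.17 without restricted 7. INSIG2, the second retention protein, differed by less than its spread, with a ratio of 1.04 (0.902 to 1.19). SCAP had a ratio of 0.946 (0.801 to 1.12), with the lowest animal, restricted 4, at 18.5 CPM and the highest, restricted 2, at 32.6 CPM.

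**Figure D3:**
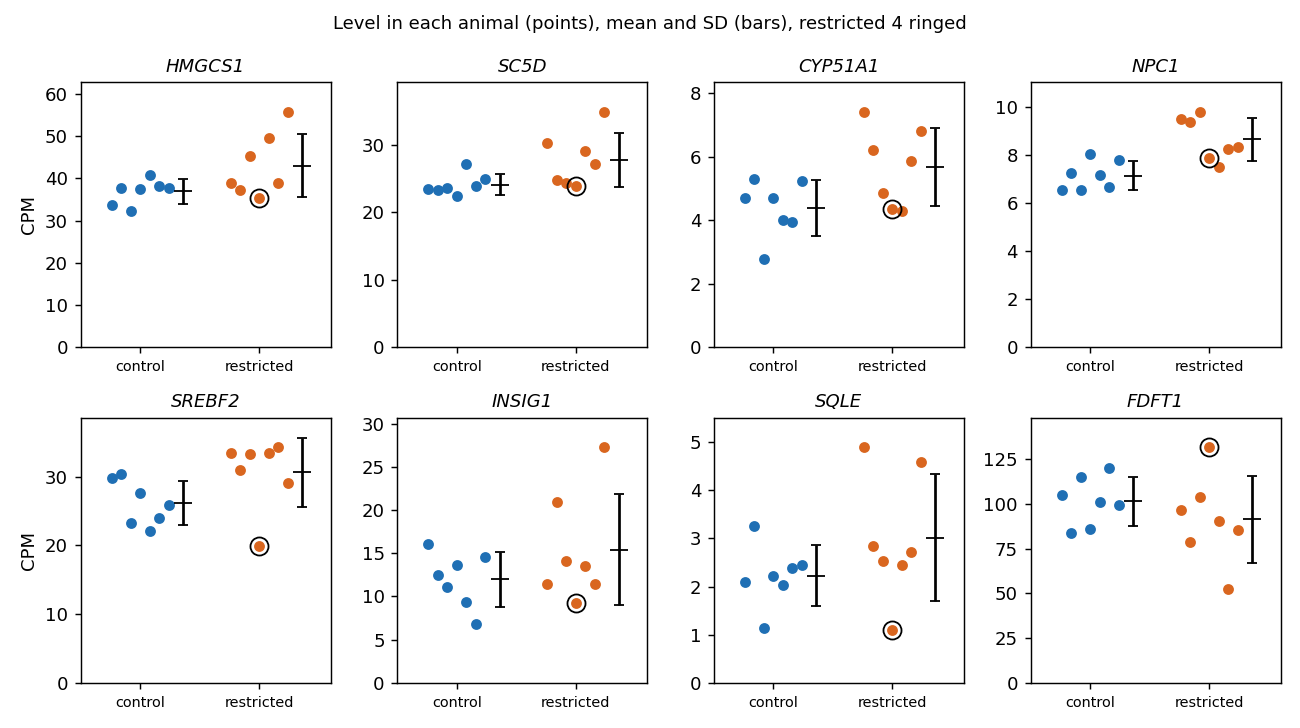
CPM of 8 sterol genes in each animal, with controls in blue and restricted offspring in orange, mean and SD as black bars, and restricted 4 ringed. Restricted 4 is lowest of the 14 animals for SREBF2 (19.96 CPM) and SQLE (1.11 CPM) and highest for FDFT1 (131.8 CPM).

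The third comparison took the genes of transport and export. Here 2 of 6 ratios lay above 1, beside 49.7% of all genes, and the median log2 fold change was -0.039. NPC1 (ENSBTAG00000015195), the lysosomal membrane protein that hands on cholesterol taken up with lipoproteins, had the smallest p of the 29 genes. It ran from 6.52 to 8.03 CPM in controls (median 7.16) and from 7.49 to 9.79 CPM in restricted offspring (median 8.32). All 7 restricted animals lay above the control median and 5 lay above every control. Means were 7.13 ± 0.608 and 8.65 ± 0.885 CPM (SD, n = 7 each), or 1.21-fold, with bounds of 1.06 and 1.38 (edgeR unadjusted p = 0.00715, adjusted p = 1.0). Its soluble partner NPC2, which passes cholesterol to NPC1, had a ratio of 0.964 (0.838 to 1.11).

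ABCA1 (ENSBTAG00000020661), the exporter that loads cholesterol onto apolipoproteins, ran from 7.25 to 12.8 CPM in controls (median 11.4) and from 5.48 to 14.2 CPM in restricted offspring (median 8.82). All 7 controls lay within the range of the restricted animals, and the ratio was 0.855 (0.652 to 1.12). Its log2 fold change of -0.23 went to -0.13 without restricted 2 and to -0.37 without restricted 7. NR1H2 ran from 43.7 to 50.9 CPM in controls (median 49.6) and from 39.4 to 50.3 CPM in restricted offspring (median 48.1), the second smallest range relative to its lowest animal among the 29, and its ratio was 0.984 (0.895 to 1.08). NR1H3, the liver X receptor alpha, had a ratio of 0.947 (0.847 to 1.06). STARD4, a carrier of cholesterol between membranes, had a ratio of 1.01 (0.795 to 1.28).

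Over the 29 genes, 4 had an unadjusted p under 0.05, all with higher values in restricted offspring, beside 2.17% of all genes on that side. The ratio exceeded 1.2 for 4 of the 29 (SQLE, CYP51A1, INSIG1 and NPC1), beside 4.74% of all genes, and lay under 1/1.2 for 0, beside 5.85%. Without control 2, 7 of the 29 lay under an unadjusted p of 0.05, beside 497 of all 12236 genes tested. Without restricted 4 it was 8, beside 692 of 12277. Without restricted 1 it was 2, beside 533 of 12250, and without restricted 7 also 2, beside 498 of 12241. In 8 of the 29 at least 6 restricted animals lay above the control median, beside 12.1% of all genes. The groups did not separate fully for any of the 29, as for nearly all genes (0.0574% did not overlap). The SD of log2 CPM was larger in restricted offspring for 21 of the 29, beside 57.0% of all genes. The 95% intervals of 24 excluded a 1.5-fold difference in both directions (77.8% of all genes), leaving ACAT2, CYP51A1, SQLE, INSIG1 and ABCA1. Those of 28 excluded a 2-fold difference (95.3% of all genes), leaving SQLE.

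Among 62 other genes of the sterol and SREBP network, 59 were tested and 0 passed the adjusted threshold by edgeR, and 3 lay under 0.05 before adjustment, all higher in restricted offspring, beside 4.25% of all genes in either direction and 2.17% higher. Of the 9 genes of synthesis and uptake, 6 had ratios above 1, beside 49.7% of all genes. PDSS1, which builds the side chain of ubiquinone from isoprenoid units, had a ratio of 1.21 (1.01 to 1.44).

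In the opposite direction the smallest p-values belonged to the sterol carriers STARD5 and STARD3 and to UBE2G2, a ubiquitin-conjugating enzyme, with ratios of 0.790, 0.916 and 0.918, and the intervals of all 3 included 1. Ratios above 1 were seen for 49.7% of all genes tested. For sensing and turnover the count was 7 of 11 genes, and for storage, transport and export 7 of 16. For the isoprenoid branches it was 7 of 11. The fatty acid genes driven by SREBP, among them FASN and SCD, had ratios above 1 in 11 of 12. Their median log2 fold change was 0.28 and none had an unadjusted p under 0.05. For 0 of the 12 did at least 6 restricted animals lie above the control median, beside 12.1% of all genes. FASN had a ratio of 1.10, yet 5 restricted animals lay under its control median of 118.9 CPM, and the highest reached 268.6 CPM. For SCD, 5 lay above the control median of 332.5 CPM. The spread between animals was larger among the fatty acid genes, with a median biological coefficient of variation of 0.361. It was 0.156 for the 19 cholesterol enzymes and also 0.156 over all genes.

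The spread between animals had a pattern of its own, which a count of enzymes above the median of the 14 animals shows. Restricted 4 lay above that median for 2 of the 19 enzymes, FDFT1 and EBP, and was the lowest of all animals for 5. Control 4 and control 6 lay above it for 3 and 5. The other 6 restricted animals lay above it for 11 to 15 enzymes, and the other 5 controls for 7 to 12. The median log2 fold change of the enzymes was 0.13. Leaving out each animal in turn, it ran from 0.087 without control 6 to 0.19 without restricted 4. Restricted 7, highest for 4 enzymes, also had the highest sum of adipocyte markers, 351.9 CPM, and of macrophage markers, 39.1 CPM, and control 6 had the lowest sum of adipocyte markers, 26.5 CPM. Restricted 4 had 78.7 and 18.03 CPM of these markers, within the range of the others. The part of other cell types in this pattern was not tested.

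**Figure D4:**
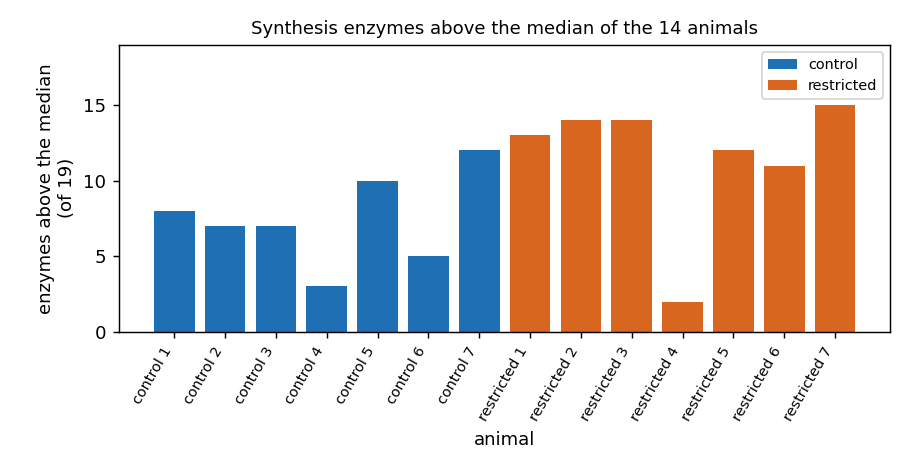
Number of the 19 synthesis enzymes above the median of the 14 animals, for each animal. Restricted 4 has 2, against 11 to 15 in the other restricted animals and 3 to 12 in the controls.

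**Figure D5:**
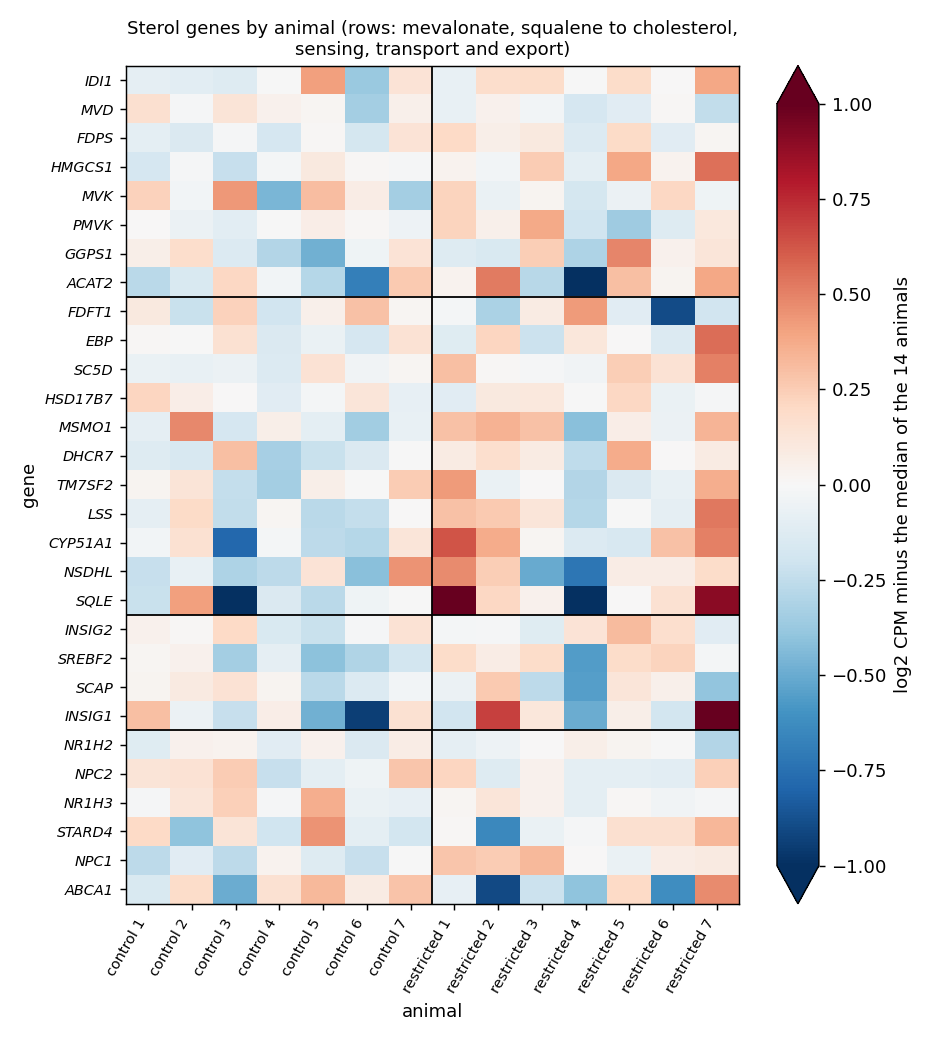
Log2 CPM of each sterol gene minus its median over the 14 animals, with blue for lower and red for higher values, animals in columns and genes in rows ordered by role. The column of restricted 4 is mostly blue among the enzymes except for FDFT1 and EBP, and that of restricted 7 is mostly red.

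Co-variation was examined on deviations from the diet means, so that a difference between diets could not produce it. Over the 171 pairs of enzymes the median Spearman's rho was 0.178, and 15.2% of pairs exceeded 0.5, beside -0.002 and 4.6% over all pairs of tested genes. All pairs share the same 14 libraries and their scaling. The median of the enzymes was 0.088 without restricted 4 and 0.027 without control 7, restricted 4 and restricted 7, and the share of enzyme pairs above 0.5 was then 9.9% and 9.4%, beside 5.4% and 7.3% over all genes. FDFT1 had a median rho of -0.145 with the other 18 enzymes, the lowest of the 19, but -0.014 without restricted 4, when MVK, HSD17B7 and MVD lay lower.

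Single pairs stood out against that weak background. Of the 406 pairs of the 29 genes, 3 passed Benjamini-Hochberg adjustment by Spearman's rho in a two-sided permutation test within diets with 100000 resamples. MSMO1 and LSS, both enzymes of the part from squalene to cholesterol, had a Pearson's r of 0.871 (permutation p = 3e-05, adjusted 0.00609) and a rho of 0.912 (permutation p = 4e-05, adjusted 0.0142) over 14 animals. SQLE and CYP51A1, which act shortly before and after LSS, had an r of 0.840 (permutation p = 2e-05, adjusted 0.00609) and a rho of 0.908 (permutation p = 7e-05, adjusted 0.0142). Without the 2 animals farthest from the median of the gene named first in each test, r was 0.804 for MSMO1 and LSS and 0.850 for CYP51A1 and SQLE. PMVK, the phosphomevalonate kinase, and INSIG2 were inversely related, with an r of -0.781 (permutation p = 0.00023, adjusted 0.0311) and a rho of -0.851 (permutation p = 0.00019, adjusted 0.0257), and an r of -0.673 without the 2 animals. HMGCS1 and ABCA1 passed by r alone, at 0.862 (permutation p = 0.00043, adjusted 0.0436), with a rho of 0.798 (permutation p = 0.00374, adjusted 0.256) and an r of 0.852 without the 2 animals.

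The levels of the 29 genes were also set against the summed adipocyte and macrophage markers, both as log2 values, over the 14 animals, 58 relations in all. None passed adjustment in a two-sided permutation test with 100000 resamples, with 4 at an unadjusted p under 0.05 by rho. The share of all genes under that p against the same marker sums was not computed. NPC2 and the macrophage markers had the strongest relation, with an r of 0.757 (permutation p = 0.00249, adjusted 0.144) and a rho of 0.741 (permutation p = 0.0031, adjusted 0.18). Its r was 0.640 in controls, 0.904 in restricted offspring and 0.677 without the 2 animals farthest from the median marker sum. INSIG1 and the adipocyte markers had an r of 0.706 (permutation p = 0.0062, adjusted 0.18) and a rho of 0.582 (permutation p = 0.0319, adjusted 0.48). Its r was 0.750 in controls and 0.782 in restricted offspring, but 0.235 without the 2 animals farthest from the median. Those 2, control 6 and restricted 7, had the lowest and the highest sum of adipocyte markers. Leaving them out narrows the range of the sums, so the lower r does not settle whether the relation rests on them.

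The sample titles end in A or B, letters whose meaning the labels do not give. Among titles ending in A (5 controls, 4 restricted), 11 of the 19 enzymes had ratios above 1, beside 50.2% of all genes. Their median log2 fold change was 0.040. Among titles ending in B (2 controls, 3 restricted), 17 did and the median was 0.26. The difference between the letters was tested for each gene as an interaction in edgeR. None of the 29 genes passed (edgeR, lowest adjusted p = 0.933), and before adjustment 0 lay under a p of 0.05, beside 5.06% of all genes. The point estimates of 21 of the 29 were larger among titles ending in B. The share of all genes on that side is not given here, nor the share with ratios above 1 among titles ending in B. NPC1 had log2 fold changes of 0.27 and 0.25 under the letters A and B, and HMGCS1 0.21 and 0.23. The other genes with an unadjusted p under 0.05 over all animals differed more, with 0.088 and 0.40 for SC5D and 0.23 and 0.44 for CYP51A1. Those of SQLE, 0.13 and 0.59, and INSIG1, 0.068 and 0.61, lay farther apart.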

How the data were processed

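The authors deposited unnormalized whole-number counts for each gene, with its symbol and its length in bases. Per the submitters' processing notes, FastQC, HISAT2, featureCounts and edgeR were used with the build ARS-UCD1.2. Tool versions, the annotation, strandedness and the handling of multi-mapping reads are not stated there, so overlapping or antisense genes cannot be told apart. Per the labels' protocols, total RNA was treated with DNase and column purified.

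Groups were taken from the treatment label, and replicate numbers follow sample order and pair nothing. Genes were kept by filterByExpr (minimum count 10, minimum total 15) in edgeR 4.0.16 (R 4.3.3), libraries scaled with TMM, and diets compared with the quasi-likelihood F test without covariates, adjusted by Benjamini-Hochberg over all 12187 genes. Ratios are fold changes of the fit, with 95% intervals from its t distribution. The fit was tested on simulated data. Every pair of libraries differed beyond sampling noise (chi-square of at least 12.8 per degree of freedom). Correlations used log2 CPM (prior count 2). Libraries held 13631018 to 17325779 counts.

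The members and lists were chosen with earlier results of these data known. Values by animal were given for members with an unadjusted p under 0.05 and, in each role group, for the most abundant and the most variable member. Of the other sterol genes, the 3 with the smallest p in each direction were to be named, and some of these are not reported here. Members named outside this rule, for their ratios or their position between animals, and the pairs in the co-variation, were chosen after their values were seen. Alternatives were DESeq2 1.42.0, limma 3.58.1 (voom), other scalings, no filter, title letters, subsets of animals and leaving out each animal. A search of promoters for sterol response elements was planned and not run, because no promoter sequence was used here. Coordinates are not given, because the reference table has another build.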

Additional observations from a re-analysis of the deposited data

Results flagged for a closer look

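In each diet group of 7, the highest or lowest animal was set against the range of its group for each of the 29 genes. A gap this wide arises by chance in about 1 in 20 groups, or 2.9 of the 58 examined, and 3 were found. SREBF2 was at 19.96 CPM in restricted 4, far below the next restricted animal at 29.03 CPM. MVD was at 19.9 CPM in control 6, with the next control at 24.8 CPM. MSMO1 was at 14.6 CPM in control 2, with the next control at 10.9 CPM.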

How the results depend on the processing

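No sterol gene passed the adjusted threshold under any of the 23 alternatives run for the diet comparison. Over all genes, DESeq2 passed 1 (MTSS1L, adjusted p = 0.0347) and the fit of only titles ending in A passed 1 (ENSBTAG00000025385, edgeR adjusted p = 0.0458), while leaving out each animal in turn passed 0 each time. Sterol genes at an unadjusted p under 0.05 numbered 4, beside 518 of all 12187 genes tested. They numbered 1 with library size scaling (all genes: 583 of 12187) and 0 with only titles ending in A (487 of 12219). Without 1 animal they numbered 2 to 8, and all genes from 472 (without control 6) to 692 (without restricted 4). Library size scaling moved the median log2 fold change of all genes to -0.050 and that of the enzymes to 0.084, and the share of genes with higher values in restricted offspring from 49.7% to 33.0%. Of the 29 genes, 19 kept their direction in every alternative and 10 changed sign at least once. With library size scaling the log2 fold change was -0.00026 for PMVK, -0.047 for HSD17B7 and -0.025 for STARD4, and with limma's voom it was 0.0035 for MVK. With only titles ending in A it was -0.034 for PMVK, -0.073 for ACAT2, -0.072 for EBP, -0.15 for TM7SF2, -0.19 for NSDHL, 0.040 for NR1H2 and -0.051 for STARD4. Without control 7, restricted 4 and restricted 7 it was -0.0085 for EBP, 0.044 for SCAP, 0.017 for NR1H2 and -0.083 for STARD4. Without 1 animal it ran from -0.0076 to 0.13 for EBP, -0.028 to 0.035 for HSD17B7, -0.11 to 0.036 for MVK, -0.043 to 0.014 for NR1H2, -0.017 to 0.11 for PMVK, -0.048 to 0.099 for STARD4 and -0.012 to 0.11 for TM7SF2. The cause of these changes was not tested. The median rho of the enzymes, 0.178, was 0.027 without the same 3 animals, an alternative chosen after seeing the data. No paired analysis was possible because the labels give no replicate numbers that the groups share. Depth limits ACAT2, NSDHL and SQLE most, at 34.6, 37.3 and 42.0 reads per animal on average.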
